A study of Mus musculus with 33 samples.

Results

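The genes described here are 34 enzymes, carriers and regulators of cholesterol and fatty acid synthesis, taken by symbol from 24421 genes counted in sorted mouse liver and lung macrophages (macs). They were chosen from their place in these pathways, and each was grouped by role: 7 genes of the mevalonate arm, 11 of the arm from squalene to cholesterol, 5 of sterol sensing and transport, 5 of fatty acid synthesis, and 6 of desaturation and elongation. Bulk RNA sequencing was performed on Kupffer cells (KCs), the resident macs of the liver, and alveolar macs (AMs), the resident macs of the airspaces of the lung, after loss of the transcription factor *Zeb2*. KCs came from Zeb2fl/fl mice without Cre (CRE- KCs, n = 6) and from Clec4f-crexZeb2fl/fl mice, in which KCs were sorted as Tim4+ (n = 6) or Tim4- (n = 6). AMs came from Zeb2fl/fl mice without Cre (CRE- AMs, n = 5) and from Itgax-crexZeb2fl/fl mice, in which AMs were sorted as CD11b- (n = 5) or CD11b+ (n = 5). The control mice therefore carried the floxed alleles as well. All mice were 6 to 8 weeks old, of both sexes, and on a C57Bl/6 background. Clec4f-cre is driven from a KC gene and Itgax-cre from the gene of CD11c, which other CD11c+ cells also express. With Clec4f-cre the paper found a reporter switched on in a minor population of B cells as well. The sorts select on surface markers and not on recombination. In both lines the paper found macs that were heterozygous for the deletion beside fully deleted ones. It reports such KCs among both Tim4+ and Tim4- cells, with *Zeb2* expression comparable with controls. The paper defined the heterozygous Tim4- KCs as putative monocyte-derived cells. The share of heterozygous cells in each sort was not measured here.

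Cells make cholesterol from acetyl-CoA through mevalonate, farnesyl diphosphate and squalene, and most enzymes of this route are switched on by the transcription factor SREBP2, the product of *Srebf2*. When sterols in the endoplasmic reticulum are low, SCAP escorts SREBP2 to the Golgi, where it is cut free to enter the nucleus, and when sterols are high the INSIG proteins hold SCAP back. Fatty acid synthesis shares the acetyl-CoA supply and depends more on SREBP1 and on the oxysterol receptors LXR, whose known targets include *Scd1* and *Abca1*. Macs of the lung and the liver differ in the lipid that they take up, since AMs clear surfactant and KCs are bathed in blood from the gut.

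Promoter sequences from RefSeq (GRCm38.p6, windows from 250 bases before to 50 bases after the annotated start) were matched by symbol for 28 of the 34 genes. No window was found for *Scd1*, *Sqle*, *Fdft1*, *Fads1*, *Fdps* and *Stard4*. At least 1 CCAAT box, the motif of NF-Y, a partner of SREBPs on sterol promoters, was present on either strand in 82.14% of the 28 genes and in 41.06% of 27025 genes with such a window. The GC box GGGCGG, the motif of Sp1, was present on either strand in 78.57% and 38.2%, respectively. Some genes had several windows. Per window the shares were 65.71% against 37.41% for the CCAAT box and 74.29% against 35.66% for the GC box. The comparison set was not limited to genes tested here. The sterol regulatory element core, searched as TCACNCCAC on either strand, was found in 1 of the 28, *Hmgcs1* (3.57%), against 1.44% of all genes, and the letters of these motifs do not overlap in that window. The 250 bases before the start are shown 5′ to 3′ on the coding strand for 3 sterol enzymes whose counts were lower in CRE+ AMs (*Hmgcs1* at chr13:119690101-119690350, plus strand, *Mvd* at chr8:122443423-122443672, minus strand, and *Cyp51* at chr5:4104698-4104947, minus strand) and for *Elovl5*, whose counts were higher (chr9:77917115-77917364, plus strand). Capitals mark the sterol element core and the CCAAT boxes, which read ATTGG where they lie on the other strand.
Hmgcs1: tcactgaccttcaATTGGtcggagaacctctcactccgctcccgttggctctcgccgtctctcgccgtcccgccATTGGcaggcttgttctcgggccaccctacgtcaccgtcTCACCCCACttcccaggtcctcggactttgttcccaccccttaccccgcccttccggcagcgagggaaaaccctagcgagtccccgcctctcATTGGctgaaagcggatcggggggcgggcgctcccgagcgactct
Mvd: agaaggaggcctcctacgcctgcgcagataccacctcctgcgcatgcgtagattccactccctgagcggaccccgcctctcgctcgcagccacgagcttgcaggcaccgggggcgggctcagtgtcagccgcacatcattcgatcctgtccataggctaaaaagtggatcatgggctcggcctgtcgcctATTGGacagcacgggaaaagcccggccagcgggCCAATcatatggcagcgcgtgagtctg
Cyp51: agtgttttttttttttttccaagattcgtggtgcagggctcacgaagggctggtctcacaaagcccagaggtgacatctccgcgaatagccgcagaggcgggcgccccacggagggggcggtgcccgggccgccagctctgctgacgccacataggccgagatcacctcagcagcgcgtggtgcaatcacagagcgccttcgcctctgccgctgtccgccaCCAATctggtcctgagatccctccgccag
Elovl5: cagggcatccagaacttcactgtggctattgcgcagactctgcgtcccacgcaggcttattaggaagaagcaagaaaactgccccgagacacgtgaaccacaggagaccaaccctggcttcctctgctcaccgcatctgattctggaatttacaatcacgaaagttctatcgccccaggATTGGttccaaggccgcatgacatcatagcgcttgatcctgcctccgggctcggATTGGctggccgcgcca
The sterol element of *Hmgcs1* starts 137 bases before the annotated start, and its NF-Y boxes start 237, 176 and 45 bases before it. The boxes of *Mvd* start 60 and 27 bases before the start, that of *Cyp51* 29 bases before it, and those of *Elovl5* 71 and 17 bases before it. A match of letters is a description of the window and was not related to binding.

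The libraries held 9837240 to 24332306 counts assigned to genes, with the lowest total in a Tim4- KC sample. *Zeb2* itself stood at 229 to 339 CPM (the usual counts scaled to library size) in CRE- KCs against 146 to 211 CPM in Tim4+ and 149 to 196 CPM in Tim4- KCs. In the lung it stood at 169.5 to 205 CPM in CRE- AMs, 84.7 to 114 CPM in CD11b- AMs and 50.3 to 70.2 CPM in CD11b+ AMs, and the recombined allele still gives a truncated transcript that is counted. A list of 6 KC markers summed to 22340 to 24620 CPM in CRE- KCs and to 307 to 514 CPM in CRE- AMs, where 5 of the 6 had a median under 1 CPM. The AM markers summed to 3747 to 4079 CPM in CRE- AMs and to 16.3 to 48.4 CPM in CRE- KCs, so both labels were matched by their markers. KC samples numbered 5 and 6 of each of the 3 KC groups carried 2706 to 3663 counts of 4 Y-linked genes. Every other KC sample carried at most 4, so the KC groups held both sexes. The AM samples held at most 1 such count each, so only the KC groups held males. In bulk samples fewer cells of a type and less RNA of a gene per cell cannot be told apart.

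The 34 genes took 0.169% ± 0.004 (SD, n = 6) of all gene counts in CRE- KCs and 0.264% ± 0.012 (SD, n = 5) in CRE- AMs. The control macs differed most in the sterol arms: the 18 enzymes from acetyl-CoA to cholesterol summed to 1251 ± 90.2 CPM (SD, n = 5) in CRE- AMs and 318 ± 27.1 CPM (SD, n = 6) in CRE- KCs, a ratio of 3.94. Of 33 members tested between the 2 control groups, 25 were lower in CRE- KCs, against 29.9% of all genes tested, and 6 were higher, against 33.3% of all genes tested (quasi-likelihood test of edgeR at an adjusted p under 0.05, with the Benjamini-Hochberg adjustment over the 12145 genes tested, as for every adjusted p given here). The ranges of the samples did not overlap for 23 of the lower and 5 of the higher members, against 23.3% and 25.4% of all genes. Tissue and sort differ together between these groups and cannot be told apart, and only the KC group held males.

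All 7 mevalonate enzymes were lower in the KC controls, with a median log2 fold change of -1.80 over the arm beside 0.03 over all genes tested. *Hmgcs1*, the cytosolic HMG-CoA synthase that opens the route, stood at 141, 149.8, 164, 174 and 138 CPM in CRE- AMs and at a lowest, median and highest of 27.1, 34 and 41.8 CPM in CRE- KCs (log2 fold change -2.13, SE 0.11, adjusted p = 4.01e-10). *Mvd*, the decarboxylase that makes isopentenyl diphosphate, stood at 93.5, 112, 97.5, 105 and 102 CPM in CRE- AMs and at 6.1, 11.5 and 13.4 CPM (lowest, median, highest) in CRE- KCs (log2 fold change -3.24, SE 0.17, adjusted p = 4.23e-10). The lowest AM sample lay above the highest KC sample for both genes, and the fitted difference was 4.39-fold for *Hmgcs1* and 9.45-fold for *Mvd*. *Idi1*, which isomerises isopentenyl diphosphate, stood at 113, 101, 88.5, 106 and 70.9 CPM in CRE- AMs and 16.9, 21.2 and 28.9 CPM in CRE- KCs (log2 fold change -2.11, SE 0.16, adjusted p = 2.58e-08). *Fdps*, the farnesyl diphosphate synthase, stood at 105, 87.4, 88.3, 99.2 and 67.5 CPM in CRE- AMs and 21.2, 25.9 and 29.3 CPM in CRE- KCs (log2 fold change -1.80, SE 0.11, adjusted p = 4.57e-09). Neither gene overlapped between the groups. *Acat2*, the cytosolic thiolase that makes acetoacetyl-CoA, stood at 21.3, 18, 19.1, 27.3 and 16 CPM in CRE- AMs and 5.27, 7.35 and 10.6 CPM in CRE- KCs (log2 fold change -1.43, SE 0.19, adjusted p = 1.28e-05). *Pmvk*, phosphomevalonate kinase, stood at 29.6, 25.2, 30.7, 31.1 and 31.8 CPM in CRE- AMs and 6.19, 12.3 and 13.8 CPM in CRE- KCs (log2 fold change -1.36, SE 0.18, adjusted p = 8.6e-06), and both were again without overlap. The smallest difference of the arm was that of *Mvk*, mevalonate kinase (log2 fold change -0.47, SE 0.19, adjusted p = 0.0431), and its call was lost without CRE- KC 1, 2, 4 or 6 or CRE- AM 1, 2, 3, 4 or 5 (adjusted p 0.0517 to 0.0921).

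In the arm from squalene to cholesterol 10 of 11 genes were lower in CRE- KCs, and the median log2 fold change was -1.97. *Sqle*, a rate-controlling squalene epoxidase, stood at 86.8, 86.3, 94, 88.5 and 77.1 CPM in CRE- AMs and at 2.05, 3.32 and 4.56 CPM (lowest, median, highest) in CRE- KCs, and the groups lay far apart (log2 fold change -4.71, SE 0.20, adjusted p = 6.31e-11, 26.2-fold lower). This placed *Sqle* 321st from the lowest fold change among the 12145 genes tested. *Fdft1*, squalene synthase, stood at 65.8, 54.7, 53.9, 61.8 and 57.4 CPM in CRE- AMs and 4.65, 5.78 and 7.64 CPM in CRE- KCs, 9.56-fold lower (log2 fold change -3.26, SE 0.14, adjusted p = 4.62e-11). *Cyp51*, the lanosterol demethylase, stood at 9.77, 20.2 and 22.6 CPM in CRE- KCs, 6.94-fold lower than in CRE- AMs (log2 fold change -2.80, SE 0.17, adjusted p = 2.86e-09). *Msmo1*, the methylsterol monooxygenase, stood at 198, 165, 168, 179 and 139 CPM in CRE- AMs and 28.3, 31.9 and 36.4 CPM in CRE- KCs (log2 fold change -2.40, SE 0.09, adjusted p = 1.87e-11). The groups were apart for all of them. *Dhcr7*, which reduces dehydrocholesterol to cholesterol (log2 fold change -1.97, SE 0.14, adjusted p = 1.56e-08), *Lss*, the lanosterol synthase (log2 fold change -1.63, SE 0.22, adjusted p = 1.67e-05), and *Hsd17b7*, a reductase of the demethylation steps (log2 fold change -2.57, SE 0.23, adjusted p = 1.65e-07), were lower too. *Lss* stood at 25.4, 24.9, 21.2, 35.6 and 25.5 CPM in CRE- AMs and 5.54, 8.02 and 12 CPM in CRE- KCs. *Nsdhl*, a sterol dehydrogenase, *Ebp*, a sterol isomerase, and *Sc5d*, a sterol desaturase, had smaller differences, with log2 fold changes of -0.94 (SE 0.12), -0.57 (SE 0.07) and -0.71 (SE 0.18). The exception was *Tm7sf2*, a sterol reductase, which was not called (log2 fold change -0.33, SE 0.17, adjusted p = 0.106).

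Among the regulators, *Srebf2* itself was lower in CRE- KCs (log2 fold change -0.94, SE 0.09, adjusted p = 4e-07), as was *Insig1*, an anchor of SCAP (log2 fold change -1.37, SE 0.11, adjusted p = 9.17e-08). *Insig2*, the other anchor, was slightly higher in CRE- KCs (log2 fold change 0.30, SE 0.09, adjusted p = 0.0123). *Stard4*, a cytosolic sterol carrier, and *Scap* were both lower, with log2 fold changes of -0.69 (SE 0.17) and -0.74 (SE 0.13), and *Stard4* stood at 8.8, 9.88 and 10.8 CPM in CRE- KCs.

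The fatty acid arms differed in the other direction for several genes. *Scd1*, the desaturase that makes oleate from stearate, stood at 4.19, 5.85, 2.7, 3.9 and 5.21 CPM in CRE- AMs and at 102, 131 and 172 CPM (lowest, median, highest) in CRE- KCs, 30.8-fold higher (log2 fold change 4.95, SE 0.20, adjusted p = 2.23e-11). *Fads1*, a front-end desaturase of polyunsaturated fatty acids, stood at 14.8, 11.1, 11.5, 14.8 and 12.9 CPM in CRE- AMs and at 105, 136 and 149.9 CPM in CRE- KCs, 10.3-fold higher (log2 fold change 3.37, SE 0.12, adjusted p = 8.14e-12). *Acss2*, which makes acetyl-CoA from acetate, stood at 3.03, 4.19, 5.26, 3.99 and 5.06 CPM in CRE- AMs and 16.8, 20.3 and 27.6 CPM in CRE- KCs, 4.99-fold higher in CRE- KCs (log2 fold change 2.32, SE 0.18, adjusted p = 4.66e-08). None of these 3 genes had overlapping groups. *Fads2*, the desaturase that acts before *Fads1*, was also higher (log2 fold change 2.80, SE 0.54, adjusted p = 0.000375), at 1.05, 2.32 and 6.31 CPM in CRE- KCs, but CRE- AMs held only 0.253 to 0.57 CPM. *Acly*, which makes acetyl-CoA from citrate, differed little (log2 fold change 0.34, SE 0.05, adjusted p = 3.77e-05). *Fasn*, the fatty acid synthase (log2 fold change -0.80, SE 0.12, adjusted p = 3.67e-05), *Elovl5*, an elongase of polyunsaturated fatty acids (log2 fold change -1.08, SE 0.08, adjusted p = 4.29e-08), and *Elovl6*, which lengthens palmitate (log2 fold change -1.84, SE 0.39, adjusted p = 0.000868), were lower in CRE- KCs with the sterol enzymes. In CRE- KCs *Fasn* stood at 38, 44.2 and 61.9 CPM and *Elovl6* at 0.606, 1.31 and 2.65 CPM (lowest, median, highest). *Acacb*, the acetyl-CoA carboxylase isoform of the mitochondrial surface, was not tested between the controls, since it stayed at 0 to 3 CPM in CRE- KCs and 0 to 0.0487 CPM in CRE- AMs.

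Compared per kilobase of exon, *Acly* had the highest level of the members in both control groups, 94.2 CPM per kb in CRE- KCs and 74.8 in CRE- AMs, followed by *Elovl1*, an elongase of saturated fatty acids, at 59.9 and 73.8 CPM per kb. The third and the fourth place were held by *Fads1* and *Scd1* in CRE- KCs (27.8 and 27.3 CPM per kb) and by *Elovl5* and *Mvd* in CRE- AMs (57.6 and 54.8 CPM per kb). The plot of KC levels against AM levels shows this split of the arms.

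**Figure D1:**
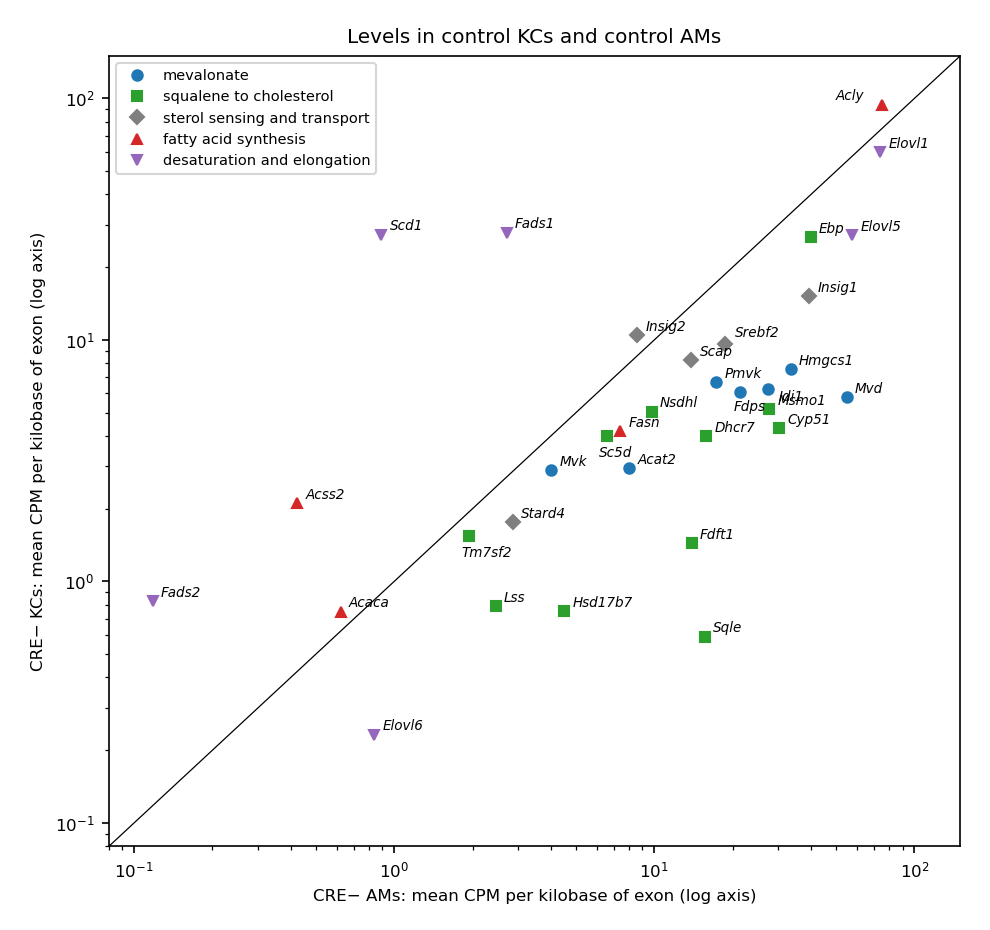
Mean level of 33 of the 34 genes in CRE- KCs (vertical axis) against CRE- AMs (horizontal axis), in CPM per kb of exon, both axes on a log scale, coloured by arm. The sterol enzymes lie below the line of equality, whereas *Scd1*, *Fads1*, *Fads2* and *Acss2* lie above it.

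Hepatocyte RNA moved with this comparison: 8 hepatocyte markers summed to 152 to 407 CPM in CRE- KCs and to 0.341 to 0.86 CPM in CRE- AMs, where all 8 had a median under 1 CPM. Markers of liver endothelium summed to 528 to 1669 CPM in CRE- KCs and 2.76 to 4.29 CPM in CRE- AMs. Markers of lung epithelium summed to 91.3 to 111 CPM in CRE- AMs, with *Sftpb* and *Slc34a2* under 1 CPM, and to 1.48 to 8.01 CPM in CRE- KCs. Their part in the differences was not tested. Without the KC samples numbered 5 and 6 the same 31 members were called.

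**Figure D2:**
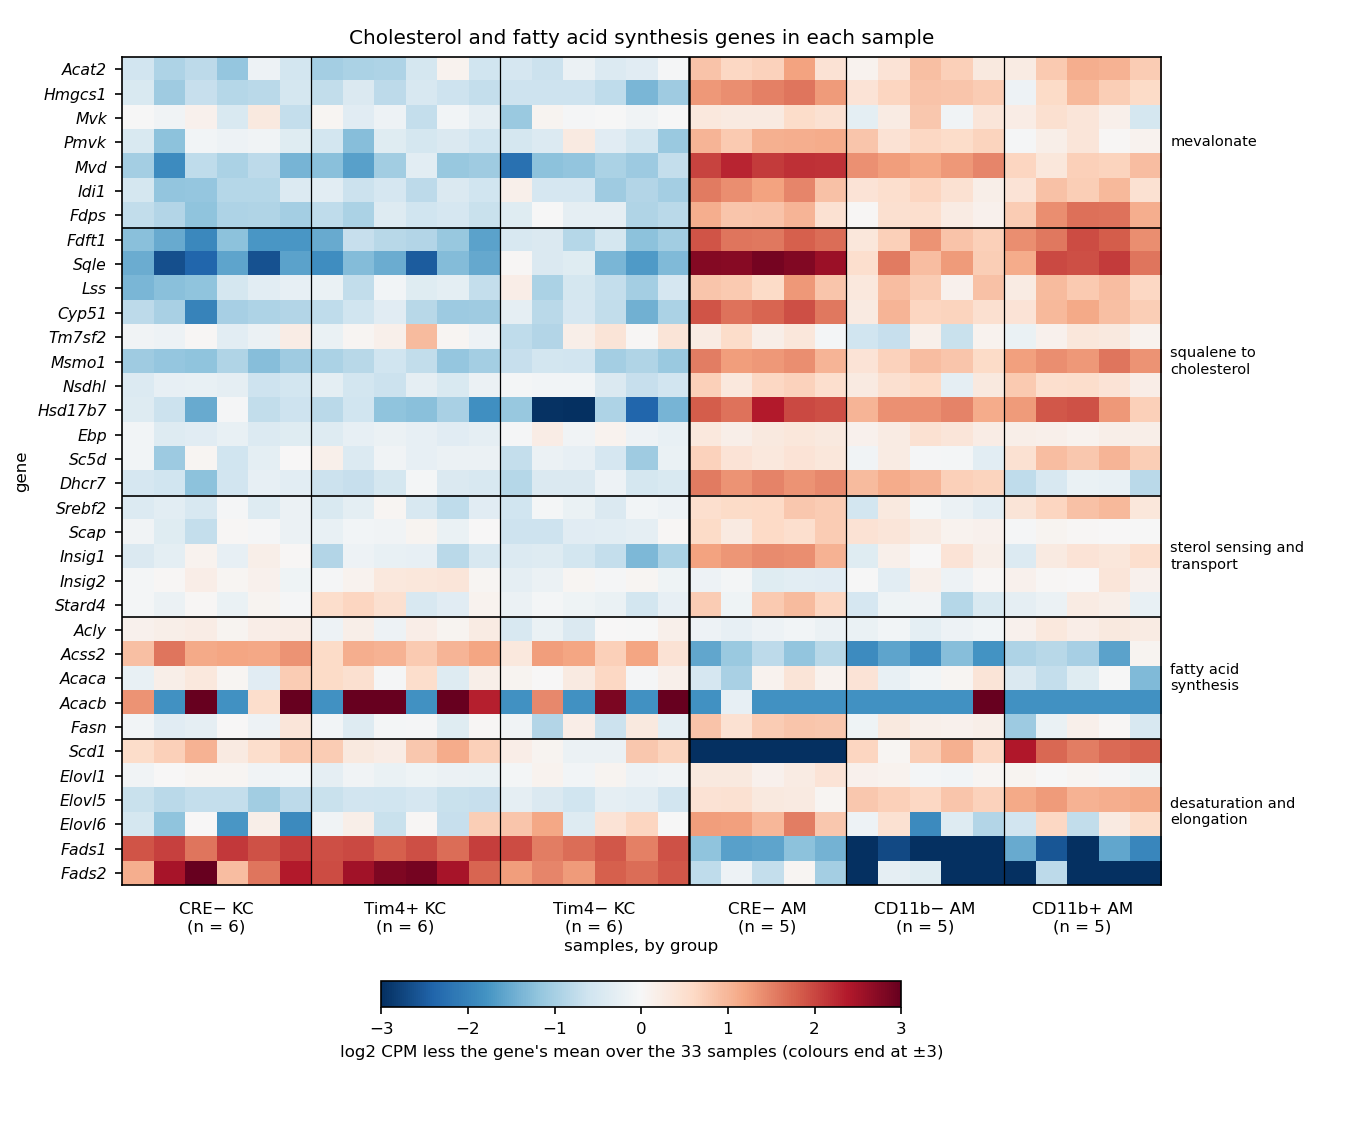
Heatmap of all 34 genes (rows, ordered by arm) in all 33 samples (columns, ordered by group), showing log2 CPM less the mean of that gene over all samples, on a colour scale from -3 to 3. The sterol enzymes form a block of high values in CRE- AMs and of low values in the 3 KC groups, and *Scd1* is low in CRE- AMs alone.

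Loss of *Zeb2* in AMs was examined in CD11b- and CD11b+ AMs, each against the same CRE- AMs, so these comparisons share their controls. In CD11b- AMs 21 of 32 members tested were lower than in CRE- AMs, against 12.4% of all genes tested, and 2 were higher, against 13.3% of all genes tested. The median log2 fold change of the members was -0.57 in CD11b- AMs, beside 0.003 over all 11573 genes. In CD11b+ AMs 15 members were lower, against 20.5% of all genes tested, and 6 were higher, against 22.8% of all genes tested, with a median log2 fold change of -0.26 beside -0.005 over all genes. Ranges did not overlap with CRE- AMs for 16 lower and 2 higher members in CD11b- AMs (8.29% and 9.77% of all genes) and for 11 lower and 4 higher members in CD11b+ AMs (13.9% and 18.6% of all genes). The 18 sterol enzymes summed to 787 ± 73.3 CPM in CD11b- AMs and 928 ± 123 CPM in CD11b+ AMs (SD, n = 5 each), so that the CRE- AM level was 1.59 and 1.35 times theirs. Both CRE+ sums were still above every KC group.

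In the mevalonate arm 5 of 7 genes fell in CD11b- AMs and 4 fell in CD11b+ AMs. *Hmgcs1* stood at 75.7, 89.3, 104, 101 and 96.9 CPM in CD11b- AMs and at 51.1, 85.5, 111, 94.9 and 85.6 CPM in CD11b+ AMs, all below the lowest CRE- AM sample. Its log2 fold changes were -0.72 (SE 0.14) and -0.86 (SE 0.14), with adjusted p = 0.000816 and 5.91e-05. *Mvd* fell further in the CD11b+ sort. It stood at 59.5, 54.5, 51.2, 56.6 and 62.5 CPM in CD11b- AMs (log2 fold change -0.85, SE 0.09, adjusted p = 1.11e-06) and at 35.5, 28.8, 37.4, 36.2 and 43 CPM in CD11b+ AMs (log2 fold change -1.51, SE 0.09, adjusted p = 8.57e-11), and neither group overlapped the other or the controls. *Idi1* stood at 51.2, 54.2, 60.1, 52.9 and 43.8 CPM in CD11b- AMs and 50.8, 71.3, 63.8, 75 and 53.2 CPM in CD11b+ AMs. It fell in both (log2 fold change -0.88, SE 0.13, adjusted p = 3.49e-05 in CD11b- and log2 fold change -0.62, SE 0.13, adjusted p = 0.000427 in CD11b+ AMs), and so did *Pmvk* (log2 fold changes -0.41 (SE 0.11) and -0.91 (SE 0.11)). *Fdps* parted from the arm. It stood at 105, 87.4, 88.3, 99.2 and 67.5 CPM in CRE- AMs, at 50.1, 68.5, 69.2, 57.9 and 53.7 CPM in CD11b- AMs and at 82.7, 129, 153, 152 and 104 CPM in CD11b+ AMs. It thus fell in CD11b- AMs (log2 fold change -0.59, SE 0.15, adjusted p = 0.00706) and rose in CD11b+ AMs (log2 fold change 0.46, SE 0.15, adjusted p = 0.0186), a rise that was not called without CRE- AM 5 or CD11b+ AM 3 or 4 (adjusted p 0.0571 to 0.0603) and in which the groups overlapped.

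In the arm from squalene to cholesterol 8 of 11 genes fell in CD11b- AMs, with a median log2 fold change of -0.56, whereas 4 fell and 1 rose in CD11b+ AMs, with a median of -0.15. *Sqle* had the largest fall of the members in CD11b- AMs: its samples stood at 18.2, 38.1, 24.4, 31.2 and 21.6 CPM in CD11b- AMs and at 27.8, 51, 49.2, 55.2 and 39.6 CPM in CD11b+ AMs, all below the lowest CRE- AM sample at 77.1 CPM. The fall was 3.26-fold in CD11b- AMs (log2 fold change -1.70, SE 0.18, adjusted p = 9.06e-07) and 1.96-fold in CD11b+ AMs (log2 fold change -0.97, SE 0.18, adjusted p = 0.000151). *Cyp51* stood at 146, 122, 131, 149 and 117 CPM in CRE- AMs, 47.2, 79.8, 61.2, 61.9 and 54.5 CPM in CD11b- AMs and 51.9, 77.2, 86.3, 72.7 and 65.1 CPM in CD11b+ AMs, and no CRE+ sample reached the CRE- range (log2 fold changes -1.13 (SE 0.13) and -0.93 (SE 0.13)). *Fdft1* and *Msmo1* were called lower in CD11b- AMs alone. *Fdft1* had a log2 fold change of -0.89 (SE 0.15) with adjusted p = 0.000157 in CD11b- AMs and -0.08 (SE 0.14) with adjusted p = 0.692 in CD11b+ AMs. *Msmo1* had -0.61 (SE 0.10) with adjusted p = 0.000141 and 0.05 (SE 0.10) with adjusted p = 0.698, and the direct test between the CRE+ sorts is given with their comparison.

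*Dhcr7*, the last enzyme of the route listed here, had the largest fall of the members in CD11b+ AMs. It stood at 100, 85.9, 95.4, 87.1 and 92 CPM in CRE- AMs, 65.7, 73.5, 68.4, 56.2 and 53.7 CPM in CD11b- AMs and 19.9, 24.2, 29.7, 29.2 and 19.3 CPM in CD11b+ AMs. The 3 groups did not overlap, and the CD11b+ values overlapped the range of the CRE- KCs (14.5 to 28.9 CPM). The fall was 1.46-fold in CD11b- AMs (log2 fold change -0.54, SE 0.11, adjusted p = 0.00153) and 3.8-fold in CD11b+ AMs (log2 fold change -1.93, SE 0.12, adjusted p = 9.1e-11), the 259th lowest fold change of the 11573 genes tested. *Sc5d*, which acts before *Dhcr7*, fell in CD11b- AMs (log2 fold change -0.49, SE 0.12, adjusted p = 0.00469) and rose in CD11b+ AMs (log2 fold change 0.34, SE 0.12, adjusted p = 0.0262), a rise not called without CRE- AM 3 or 5 or CD11b+ AM 2 or 4 (adjusted p 0.0575 to 0.0782). *Hsd17b7* stood at 20.7, 18.1, 30.5, 23 and 22.3 CPM in CRE- AMs, 11.9, 15.1, 15.1, 16.3 and 12.7 CPM in CD11b- AMs and 14.1, 21.2, 21.9, 14.3 and 9.5 CPM in CD11b+ AMs. It fell in CD11b- AMs (log2 fold change -0.70, SE 0.19, adjusted p = 0.0114) and in CD11b+ AMs (log2 fold change -0.52, SE 0.19, adjusted p = 0.0364), and the CD11b+ call was lost without CRE- AM 3, 4 or 5 or CD11b+ AM 1, 4 or 5 (adjusted p 0.0529 to 0.123). *Tm7sf2* was called lower in CD11b- AMs by a small margin (log2 fold change -0.56, SE 0.20, adjusted p = 0.0496) and not without CRE- AM 1, 2, 3 or 4, CD11b- AM 1, 2 or 4 or CD11b+ AM 2, 3, 4 or 5 (adjusted p 0.0545 to 0.122). *Acat2*, *Mvk*, *Lss*, *Nsdhl* and *Ebp* were called in neither sort, with log2 fold changes in CD11b- AMs of -0.28 (SE 0.18), -0.13 (SE 0.20), -0.25 (SE 0.17), -0.28 (SE 0.14) and -0.01 (SE 0.07).

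**Figure D3:**
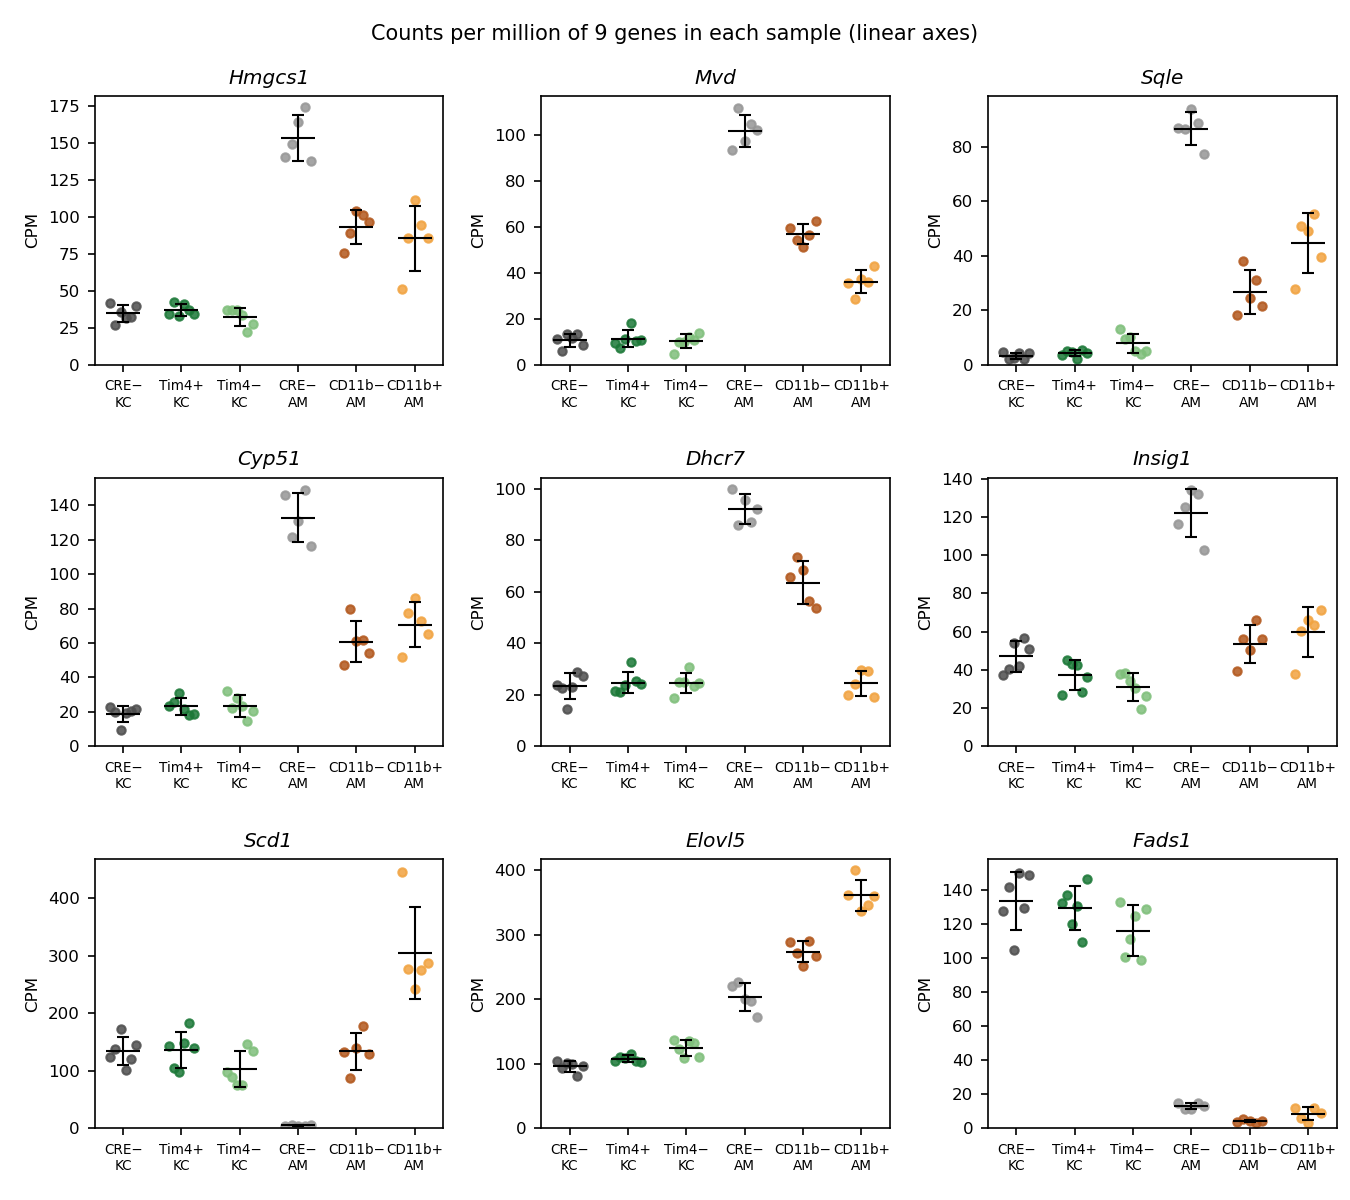
CPM of 9 members in the 6 groups on linear axes, with a point for each sample and a bar at the mean with the SD (n = 6 for each KC group and n = 5 for each AM group). *Hmgcs1*, *Mvd*, *Sqle*, *Cyp51*, *Dhcr7* and *Insig1* are highest in CRE- AMs, and *Scd1* and *Elovl5* increase from CRE- to CD11b- to CD11b+ AMs.

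The regulators fell with the enzymes in CD11b- AMs, 4 of 5 being lower, whereas 3 fell and 1 rose in CD11b+ AMs. *Srebf2* stood at 120.3, 126, 129, 149.9 and 143 CPM in CRE- AMs, 58.4, 105, 81.8, 75.2 and 68.2 CPM in CD11b- AMs and 112, 133, 157, 166 and 108 CPM in CD11b+ AMs. It fell in CD11b- AMs without overlap (log2 fold change -0.79, SE 0.14, adjusted p = 0.000251), whereas the CD11b+ samples lay around the controls (log2 fold change 0.00, SE 0.14, adjusted p = 0.997). *Insig1* stood at 116, 125, 134, 132 and 103 CPM in CRE- AMs, 39.2, 56, 50.4, 66.4 and 56.3 CPM in CD11b- AMs and 37.6, 60.4, 66.4, 63.5 and 71.4 CPM in CD11b+ AMs. No CRE+ sample of *Insig1* reached the control range (log2 fold change -1.19, SE 0.15, adjusted p = 5.79e-06 in CD11b- and log2 fold change -1.04, SE 0.15, adjusted p = 7.79e-06 in CD11b+ AMs). *Stard4* stood at 17.2, 9.26, 17.6, 19.7 and 16 CPM in CRE- AMs, 7.15, 9.31, 9.47, 5.6 and 7.39 CPM in CD11b- AMs and 8.41, 9.03, 12, 11.4 and 8.75 CPM in CD11b+ AMs, where the CRE- sample at 9.26 CPM lay among the CRE+ samples. It fell in both sorts (log2 fold changes -1.04 (SE 0.20) and -0.70 (SE 0.19)), as did *Scap* (-0.29 (SE 0.08) and -0.55 (SE 0.09)). *Insig2* had a log2 fold change of 0.18 (SE 0.10) in CD11b- AMs, not called, and rose in CD11b+ AMs (log2 fold change 0.37, SE 0.10, adjusted p = 0.0075).

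In the fatty acid arms the direction depended on the gene. *Scd1* rose from 4.19, 5.85, 2.7, 3.9 and 5.21 CPM in CRE- AMs to 132, 87.2, 139.7, 177 and 129 CPM in CD11b- AMs and 445, 276, 243, 274 and 287 CPM in CD11b+ AMs. The lowest CRE+ sample, at 87.2 CPM, lay far above the highest CRE- sample, at 5.85 CPM. The rise was 30.3-fold in CD11b- AMs (log2 fold change 4.92, SE 0.22, adjusted p = 5.44e-12) and 69.2-fold in CD11b+ AMs (log2 fold change 6.11, SE 0.23, adjusted p = 5.67e-14), the 79th and 139th highest fold changes of the 11573 genes tested. The mean in CD11b- AMs was 133 ± 32.1 CPM (SD, n = 5) beside 133 ± 24.2 CPM (SD, n = 6) in CRE- KCs, a pair of groups that was not tested. *Elovl5* rose in both sorts, from 221, 227, 199.6, 196 and 172 CPM to 288, 271, 252, 290 and 267 CPM in CD11b- AMs and 361, 401, 336, 346 and 359 CPM in CD11b+ AMs, without overlap (log2 fold change 0.42, SE 0.07, adjusted p = 0.000248, and log2 fold change 0.81, SE 0.07, adjusted p = 1.98e-08, respectively). *Elovl5* and *Scd1* were the only members that rose in both sorts.

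The other fatty acid genes that changed in both sorts fell. *Fasn* stood at 87.2, 66.4, 81.5, 85.4 and 83.9 CPM in CRE- AMs, 43.7, 58.8, 53.1, 52.3 and 54.1 CPM in CD11b- AMs and 22.7, 41.8, 53.6, 48.8 and 34.6 CPM in CD11b+ AMs, all CRE+ samples being below the controls (log2 fold change -0.63, SE 0.16, adjusted p = 0.0057, and log2 fold change -1.02, SE 0.16, adjusted p = 2.92e-05, respectively). *Fads1* fell in CD11b- AMs, to 3.7, 5.27, 4.1, 3.12 and 4.34 CPM (log2 fold change -1.67, SE 0.27, adjusted p = 0.000142). In CD11b+ AMs *Fads1* stood at 12, 5.78, 3.23, 11.7 and 8.92 CPM, overlapping the controls, and its call (log2 fold change -0.66, SE 0.26, adjusted p = 0.0497) was lost without CRE- AM 1, 2, 3, 4 or 5, CD11b- AM 1, 2, 3, 4 or 5 or CD11b+ AM 2, 3 or 5 (adjusted p 0.0505 to 0.122). *Elovl6* stayed low throughout, at 5.66, 5.56, 4.71, 6.84 and 4.15 CPM in CRE- AMs, 2.13, 3.27, 0.606, 1.79 and 1.28 CPM in CD11b- AMs and 1.58, 3.65, 1.41, 2.84 and 3.48 CPM in CD11b+ AMs, and was lower in both sorts (log2 fold change -1.57, SE 0.38, adjusted p = 0.00457, and log2 fold change -1.07, SE 0.37, adjusted p = 0.0268, respectively). The CD11b+ call of *Elovl6* was lost without CRE- AM 4 or CD11b+ AM 1 or 3 (adjusted p 0.0651 to 0.0665). *Elovl1* fell slightly in both (log2 fold changes -0.25 (SE 0.06) and -0.30 (SE 0.06)). *Acly* stood at 400.1, 373, 395, 416 and 390.3 CPM in CRE- AMs and rose only in CD11b+ AMs, where it stood at 485, 552, 508, 540.3 and 527 CPM (log2 fold change 0.39, SE 0.06, adjusted p = 1.06e-05). In CD11b- AMs *Acly* was not called (log2 fold change 0.00, SE 0.06, adjusted p = 0.966). *Acacb* and *Fads2* did not pass the filter on low counts in AMs, where *Acacb* had no count in any CD11b+ sample and in 4 of 5 samples of each other AM group, and *Fads2* stayed between 0 and 0.57 CPM. *Acss2* and *Acaca* were called in neither sort against CRE- AMs.

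CD11b+ and CD11b- AMs came from the same line and were compared directly. Of 32 members tested, 11 were higher in CD11b+ AMs, against 19.8% of all genes tested, and 5 were lower, against 16.6% of all genes tested. Calls went both ways in 4 of the 5 arms, and the 3 members called in desaturation and elongation were all higher. *Fdps* was 2.06-fold higher in CD11b+ AMs (log2 fold change 1.04, SE 0.15, adjusted p = 2.15e-05), and *Fdft1* (log2 fold change 0.81, SE 0.15, adjusted p = 0.000242), *Sqle* (log2 fold change 0.73, SE 0.18, adjusted p = 0.0034), *Msmo1* (log2 fold change 0.67, SE 0.10, adjusted p = 3.25e-05), *Sc5d* (log2 fold change 0.83, SE 0.12, adjusted p = 1.96e-05) and *Srebf2* (log2 fold change 0.79, SE 0.14, adjusted p = 0.00015) were also higher. *Mvd* (log2 fold change -0.66, SE 0.09, adjusted p = 1.57e-05), *Pmvk* (log2 fold change -0.50, SE 0.11, adjusted p = 0.00128) and *Dhcr7* (log2 fold change -1.38, SE 0.12, adjusted p = 3.23e-08, 2.61-fold) were lower. Among the fatty acid genes *Scd1* was 2.28-fold higher (log2 fold change 1.19, SE 0.18, adjusted p = 2.95e-05), and *Elovl5*, *Acly* and *Fads1* were higher with log2 fold changes of 0.39 (SE 0.07), 0.39 (SE 0.06) and 1.0 (SE 0.27). The call of *Fads1* was lost with limma-voom and with the replicate number as a block in a fit of these groups alone. *Acss2* was higher (log2 fold change 0.91, SE 0.29, adjusted p = 0.018), but not with that block and not without CD11b+ AM 5 (adjusted p 0.0889). *Acaca*, the main cytosolic acetyl-CoA carboxylase, was lower (log2 fold change -0.66, SE 0.25, adjusted p = 0.0462) but not without CRE- AM 3 or 5, CD11b- AM 1, 4 or 5 or CD11b+ AM 1, 2, 3 or 5 (adjusted p 0.052 to 0.115). The call of *Scap* (log2 fold change -0.26, SE 0.09, adjusted p = 0.0231) was lost without CD11b- AM 1 or 2 (adjusted p 0.0553 to 0.0734).

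Expression of neutrophil genes moved with these comparisons: 6 such markers summed to 35.9 to 59.6 CPM in CRE- AMs, 805 to 2421 CPM in CD11b- AMs and 8162 to 10460 CPM in CD11b+ AMs. Most of the CD11b+ sum was *S100a8* and *S100a9* (means of 4438 ± 462 and 3662 ± 404 CPM), whereas *Retnlg* had a mean of 2.83 ± 1.17 CPM. Monocyte markers summed to 597 to 1044, 79.7 to 175 and 350.1 to 631 CPM in the same order of groups. Of these 6 markers, *Ly6c2*, *Plac8*, *Vcan* and *Cx3cr1* had a median under 1 CPM in CRE- AMs. So had *Plac8*, *Vcan* and *Cx3cr1* in CD11b- AMs, and *Vcan* alone in CD11b+ AMs. Proliferation genes summed to 136 to 220.5, 159 to 281 and 103 to 185 CPM. Their part in the results was not tested.

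**Figure D4:**
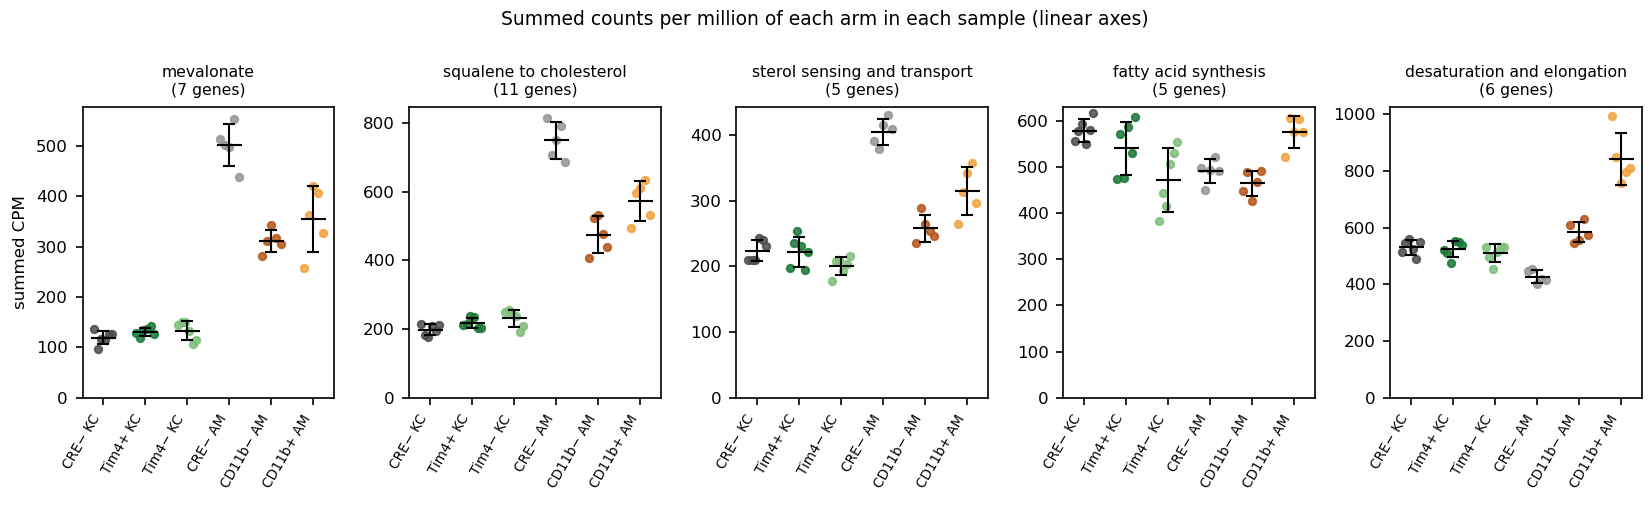
Summed CPM of the genes of each of the 5 arms in the 6 groups, with a point for each sample and a bar at the mean with the SD. The mevalonate, squalene and sensing arms are highest in CRE- AMs. The sum of desaturation and elongation rises from 427 CPM in CRE- AMs to 583 CPM in CD11b- and 842 CPM in CD11b+ AMs. In this arm *Scd1* and *Elovl5* were called higher in both CRE+ sorts, whereas *Elovl1*, *Elovl6* and *Fads1* were called lower in both. The median log2 fold change of the arm was -0.25 in CD11b- and -0.30 in CD11b+ AMs.

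Loss of *Zeb2* in KCs was examined in Tim4+ and Tim4- KCs, each against the same CRE- KCs. How many cells of each sort had lost both copies was not measured. In Tim4+ KCs none of the 34 members was called against CRE- KCs in either direction, against 3.63% of all genes tested that were higher and 2.46% of all genes tested that were lower. At an unadjusted p under 0.05, edgeR gave 2 higher members (*Fdft1* and *Fdps*) and 2 lower members (*Elovl1* and *Insig1*), where it gave 9.44% and 7.87% of all genes. The limma-voom and DESeq2 alternatives called 0 members. The median log2 fold change was 0.07 beside -0.003 over all genes, and single members ranged from -0.49 for *Hsd17b7* to 0.64 for *Elovl6*. By arm the median ran from -0.10 for fatty acid synthesis to 0.21 for squalene to cholesterol. *Sqle* stood at 2.25, 4.52 and 5.26 CPM, *Hmgcs1* at 33.3, 35.9 and 42.3 CPM and *Mvd* at 7.4, 10.6 and 18.3 CPM (lowest, median, highest) in Tim4+ KCs, all within or beside the ranges of CRE- KCs given above.

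In Tim4- KCs 6 of 34 members were higher than in CRE- KCs, against 12.2% of all genes tested, and 3 were lower, against 13.2% of all genes tested, so the members were called about as often as all genes. The median log2 fold change was -0.05 beside -0.03 over all genes. The arms differed in direction. The median was 0.20 for squalene to cholesterol, with 9 of 11 genes above 0, and -0.34 for fatty acid synthesis, with 4 of 5 below 0. The 18 sterol enzymes summed to 279 to 352 CPM in CRE- KCs, 330 to 373 CPM in Tim4+ KCs and 300 to 406 CPM in Tim4- KCs. These sums overlapped and were not tested. Of the higher members 4 were sterol enzymes (*Fdps*, *Fdft1*, *Sqle* and *Ebp*) and 2 were elongases. *Sqle* stood at 3.97, 7.33 and 13.2 CPM (lowest, median, highest) in Tim4- KCs, against 2.05 to 4.56 CPM in CRE- KCs. The groups overlapped, and *Sqle* was 2.34-fold higher in Tim4- KCs (log2 fold change 1.22, SE 0.32, adjusted p = 0.0075). *Fdft1* stood at 4.65, 5.78 and 7.64 CPM in CRE- KCs and 7.6, 11.1 and 13.2 CPM in Tim4- KCs (log2 fold change 0.80, SE 0.20, adjusted p = 0.00628). *Fdps* stood at 21.2, 25.9 and 29.3 CPM in CRE- KCs and 26.3, 39.3 and 48.6 CPM in Tim4- KCs (log2 fold change 0.52, SE 0.14, adjusted p = 0.00933). Both ranges overlapped at their edges. *Ebp* was higher by a small amount (log2 fold change 0.25, SE 0.09, adjusted p = 0.0359), not called without CRE- KC 2, 3, 5 or 6 or Tim4- KC 2 or 4 (adjusted p 0.0696 to 0.0993). *Hsd17b7* was lower (log2 fold change -1.22, SE 0.41, adjusted p = 0.0339) at 0.411, 1.65 and 3.04 CPM against 2.03, 3.73 and 5.69 CPM, and not called without CRE- KC 1 or 4 or Tim4- KC 2, 3 or 5 (adjusted p 0.0563 to 0.0804).

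*Insig1* stood at 37.3, 46.6 and 56.9 CPM (lowest, median, highest) in CRE- KCs and 19.6, 32.4 and 38.3 CPM in Tim4- KCs and was lower with some overlap (log2 fold change -0.62, SE 0.17, adjusted p = 0.00848). Without the KC samples numbered 5 and 6 of each group, which came from males, this call was lost (log2 fold change -0.32, adjusted p = 0.193). The calls of *Ebp* (adjusted p = 0.0746), *Elovl6* (adjusted p = 0.0755) and *Hsd17b7* (adjusted p = 0.145) were lost with it. Sex and sample number go together in these samples and cannot be told apart, and leaving them out also lowers n. *Acly* was lower (log2 fold change -0.34, SE 0.10, adjusted p = 0.0181), at 469, 502 and 515 CPM in CRE- KCs and 315, 412 and 488 CPM in Tim4- KCs. *Elovl5* was the only member whose samples did not overlap, at 80.1, 98 and 104 CPM in CRE- KCs and 108, 127 and 136 CPM in Tim4- KCs (log2 fold change 0.35, SE 0.08, adjusted p = 0.00209), against 5.99% of all genes that did not overlap and were higher. *Elovl6* was higher at low counts, with 1.81, 3.41 and 5.27 CPM in Tim4- KCs (log2 fold change 1.16, SE 0.41, adjusted p = 0.0403), and not called without CRE- KC 1, 2, 4 or 6 or Tim4- KC 1, 2, 4 or 5 (adjusted p 0.0557 to 0.0997). *Scd1*, the gene with the largest rise in CRE+ AMs, stood at 102, 131 and 172 CPM in CRE- KCs, 97.5, 141 and 183 CPM in Tim4+ KCs and 74.7, 92.8 and 147 CPM in Tim4- KCs. It was not called in Tim4- KCs (log2 fold change -0.40, SE 0.18, adjusted p = 0.111). It was called lower there without KC samples 5 and 6 (log2 fold change -0.69, adjusted p = 0.0127) and without Tim4- KC 5 (log2 fold change -0.53, adjusted p = 0.0318). With the replicate number as a block *Scd1* and *Fads1* were called lower as well, and the call of *Elovl6* was lost.

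**Figure D5:**
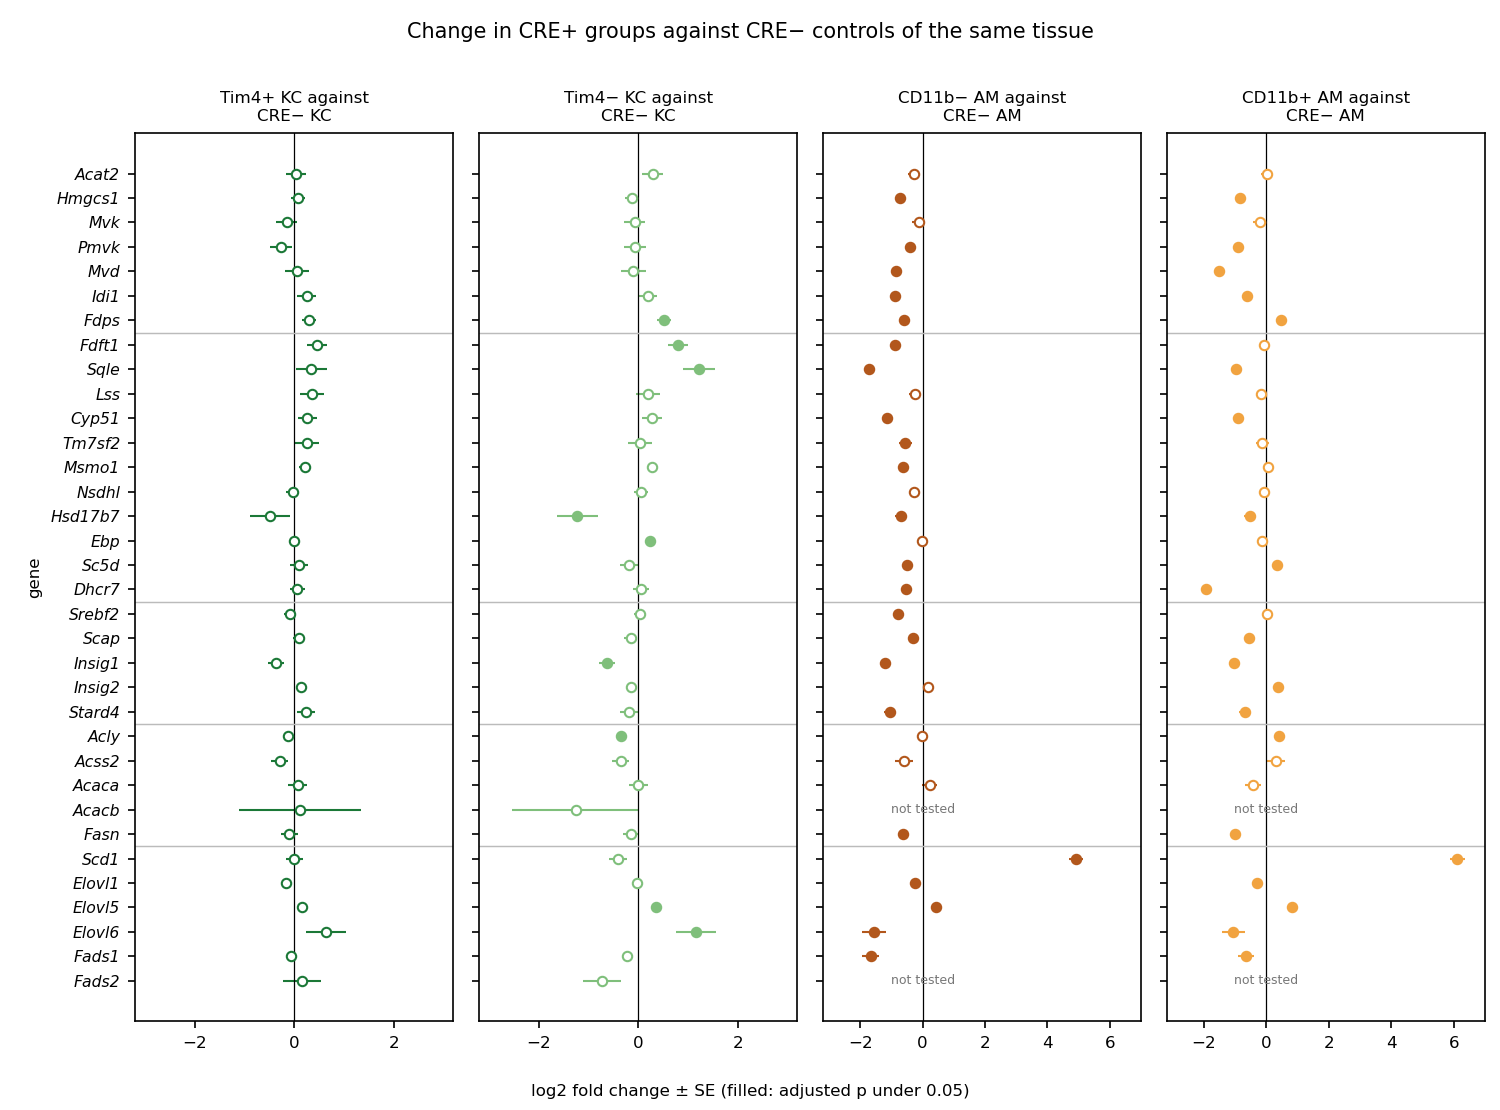
Log2 fold change with its SE for each gene in 4 panels, Tim4+ and Tim4- KCs against CRE- KCs and CD11b- and CD11b+ AMs against CRE- AMs, with filled points where the adjusted p was under 0.05. The AM panels have a wider axis than the KC panels, and *Acacb* and *Fads2* were not tested in AMs. No point is filled for Tim4+ KCs, 9 are for Tim4- KCs, 23 for CD11b- AMs and 21 for CD11b+ AMs.

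Between the CRE+ sorts of the liver none of the 34 members was called, against 3.84% of all genes tested that were higher in Tim4- than in Tim4+ KCs and 7.62% of all genes tested that were lower. At an unadjusted p under 0.05 edgeR gave 4 higher and 5 lower members, where it gave 11.1% and 13.7% of all genes. DESeq2 called 3 members (*Ebp* and *Sqle* higher, *Insig2* lower) and limma-voom 0. Tim4+ and Tim4- samples with the same number deviated together, and with the replicate number as a block 1 member, *Insig2*, was called lower. With the block in a fit of these groups alone, 2 of 33 members were called lower, *Acly* and *Scd1*. *Sqle* had a log2 fold change of 0.88 (SE 0.32) with adjusted p = 0.0787, which fell to 0.0439 without KC samples 5 and 6 (log2 fold change 1.29). Leaving out 1 sample gave a call to *Sqle* without Tim4- KC 5 (adjusted p 0.042), to *Insig2* without Tim4+ KC 1 (adjusted p 0.039) and to *Ebp* without Tim4- KC 6 (adjusted p 0.0348).

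Marker sums of other cells also varied between the KC groups. Liver endothelial markers summed to 528 to 1669 CPM in CRE- KCs, 953 to 2763 CPM in Tim4+ KCs and 279 to 398 CPM in Tim4- KCs, and hepatocyte markers to 152 to 407, 119 to 367 and 77.3 to 194 CPM. Monocyte markers summed to 173 to 312, 154 to 474 and 350.3 to 865 CPM, with *Ly6c2* and *Vcan* under 1 CPM in every KC group. B cell markers summed to 46.5 to 88.2, 22.3 to 51.8 and 48.7 to 114 CPM, T cell markers to 2.86 to 5.62, 4.8 to 15.5 and 1.89 to 28.1 CPM, and proliferation genes to 56 to 266, 87.3 to 199 and 132 to 256 CPM. The KC markers themselves summed to 22340 to 24620, 14440 to 16160 and 9471 to 10940 CPM. Their part in the results was not tested.

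The change with loss of *Zeb2* was then compared between the tissues in an interaction over all 33 samples, as the mean change of the CRE+ sorts in KCs less that in AMs. It was above 0 for 14 of 34 members, against 10% of all genes tested, and below 0 for 3, against 9.52% of all genes tested. The median difference over the members was 0.49 on the log2 scale, beside 0.01 over all 13294 genes. The 14 genes were 8 sterol enzymes, *Scap*, *Insig1*, *Stard4*, *Fasn*, *Elovl6* and *Fads1*, led by *Elovl6* (difference 2.23, SE 0.49) and *Sqle* (difference 2.13, SE 0.33). *Dhcr7* and *Cyp51* each had a difference of 1.31 (SE 0.17 and 0.22). The 3 genes below 0 were *Scd1* (difference -5.71, SE 0.28), *Acly* (-0.41, SE 0.11) and *Elovl5* (-0.36, SE 0.09). *Scap* was not called without CRE- KC 2 or 3, Tim4- KC 5, CRE- AM 1, 3 or 5 or CD11b+ AM 1 or 5 (adjusted p 0.0502 to 0.0856) nor without KC samples 5 and 6 (adjusted p = 0.0837), and *Insig1* not without CRE- KC 1 or CRE- AM 3 (adjusted p 0.0501 to 0.0507). Tissue and Cre line differ together here and cannot be told apart. The share of fully deleted cells was not measured in either tissue, and only the KC groups held males.

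The other genes of these pathways were followed in a list of 28 regulators, efflux genes and lipid enzymes. Of 26 tested, 7 were higher and 6 lower in CD11b- AMs, against 13.3% and 12.4% of all genes tested, and 8 were higher and 8 lower in CD11b+ AMs, against 22.8% and 20.5% of all genes tested. *Nr1h3*, which codes for LXRα, rose from 64.4 to 86.3 CPM in CRE- AMs to 104 to 126 CPM in CD11b- AMs (log2 fold change 0.60, SE 0.08, adjusted p = 2.36e-05) and 132 to 154 CPM in CD11b+ AMs (log2 fold change 0.91, SE 0.08, adjusted p = 2.65e-08). *Abca1*, a cholesterol efflux transporter, rose as well (log2 fold changes 1.30 (SE 0.11) and 0.92 (SE 0.11)), whereas *Abcg1*, another efflux transporter and LXR target, fell in both sorts (-0.25 (SE 0.05) and -0.28 (SE 0.05)). Other genes that rose in both sorts included the acyl-CoA synthetase *Acsl3* (2.37 (SE 0.19) and 4.01 (SE 0.19)) and the elongase *Elovl7* (3.19 (SE 0.53) and 6.25 (SE 0.52)). *Elovl7* stood at 0 to 0.618 CPM in CRE- AMs, with 0 counts in 2 of 5 samples, so the size of its fold changes is uncertain. It stood at 1.21 to 2.33 CPM in CD11b- AMs and 9.12 to 25.2 CPM in CD11b+ AMs. *Srebf1*, the gene of SREBP1, fell in CD11b+ AMs (log2 fold change -0.42, SE 0.07, adjusted p = 6.86e-05) and was not called in CD11b- AMs (log2 fold change 0.13, SE 0.07, adjusted p = 0.185). *Lpin1*, a phosphatidate phosphatase, fell in both (log2 fold changes -0.70 (SE 0.11) and -0.71 (SE 0.11)). *Scd2*, the paralog of *Scd1*, rose in CD11b- AMs (log2 fold change 0.83, SE 0.10, adjusted p = 4.37e-06) and was not called in CD11b+ AMs (log2 fold change 0.00, SE 0.10, adjusted p = 0.983).

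In KCs 1 of the 26 tested was higher and 2 lower in Tim4+ KCs, against 3.63% and 2.46% of all genes tested, and 1 was higher and 4 lower in Tim4- KCs, against 12.2% and 13.2% of all genes tested. *Nr1h3* stood at 789, 853 and 1028 CPM (lowest, median, highest) in CRE- KCs and fell in Tim4+ (log2 fold change -0.42, SE 0.12, adjusted p = 0.0341) and Tim4- KCs (log2 fold change -0.46, SE 0.12, adjusted p = 0.00672), the opposite of its change in AMs. *Aacs*, which makes acetoacetyl-CoA for sterol synthesis, rose in both (log2 fold changes 0.82 (SE 0.11) and 0.83 (SE 0.11)). Between the controls 9 of 25 were higher and 9 lower in CRE- KCs, shares near the 33.3% and 29.9% of all genes tested, with *Nr1h3* among the higher (log2 fold change 3.59, SE 0.10, adjusted p = 4.21e-13) and *Lpin1* among the lower (log2 fold change -4.14, SE 0.18, adjusted p = 7.49e-11).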

How the data were processed

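Sorted KCs and AMs were sequenced in bulk, 33 libraries in 6 groups. The authors trimmed reads (Trimmomatic 0.35), checked them (FastQC 0.11.4), mapped them to mm10 (TopHat2 2.1.0, SAMtools 0.1.18) and deposited raw counts per gene symbol made with HTSeq-count, whose version is not given in the sources used here. The 5 tally rows of each file (5.88% to 10.1% of reads unassigned) were left out. The study's single-cell and array data were not analysed here.

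Counts were tested with edgeR 4.0.16 (R 4.3.3; TMM scaling, filterByExpr, quasi-likelihood fit) in fits of 18 KC, 15 AM, 11 CRE- and all 33 samples, with Benjamini-Hochberg adjustment over all genes tested and a call at an adjusted p under 0.05. SE is the absolute log2 fold change divided by the square root of F. CPM were TMM-scaled over 33 samples, and levels per kb used GENCODE M21 exon unions, in which 95.72% of symbols were found. The genes and the other gene lists were chosen with earlier results of these data known. Values by sample are given for the 22 members called in a comparison with a log2 fold change beyond 1 in either direction, or among the 2 largest changes called in it, and for a few others. Samples are labelled as separate but not as separate mice, so p-values measure the spread between them. Tim4+ and Tim4- KC samples of the same number correlated in their deviations from the group means (r from 0.1227 to 0.2618 in 6 pairs). The main fits of KCs and of AMs held group means only and did not use the sample number. Pairing by number entered only in the alternatives with a replicate block. Alternatives were limma-voom (limma 3.58.1), DESeq2 1.42.0, other filters, a fold change minimum, replicate blocks and leaving out samples. Leaving out KC samples 5 and 6, and blocks within the groups compared, were added after the data had been seen. The fit of the 18 KC samples was tested on simulated counts, where only Tim4- against CRE- KCs was read out and edgeR made 4 false calls. There edgeR recovered 62% of genes changed by a fold of 0.5 and 68.18% at a fold of 2. At folds of 0.25 and 4 it recovered 90.2% and 92%, so smaller changes in KCs can be missed. No pair of libraries within a group had identical counts, and pairs across groups were not compared. At these depths 3 counts, the least taken as detected, correspond to 0.123 to 0.305 CPM, and this covers counting error only.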

Additional observations from a re-analysis of the deposited data

Results flagged for a closer look

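In 9 of 129 pairs of a gene and a group, a sample stood apart from the rest of its group by Dixon's criterion, which chance meets in about 5% of groups. In Tim4+ KCs these were *Acat2* at 12.6 CPM in sample 5 (the others 5.84 to 8.21), *Pmvk* at 6.03 CPM in sample 2 (9.61 to 11.4), *Mvd* at 18.3 CPM in sample 4 (7.4 to 11) and *Dhcr7* at 32.6 CPM, also in sample 4 (21.1 to 25.2). In Tim4- KC sample 1, *Idi1* stood at 42.6 CPM (18.3 to 27.1) and *Lss* at 16.4 CPM (7.1 to 10). *Cyp51* stood at 9.77 CPM in CRE- KC sample 3 (19.6 to 22.6), *Fasn* at 66.4 CPM in CRE- AM sample 2 (81.5 to 87.2) and *Scd1* at 445 CPM in CD11b+ AM sample 1 (243 to 287).

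The change with loss of *Zeb2* in KCs differed from that in AMs by the interaction test of edgeR for 17 genes, given as KC change less AM change on the log2 scale with the adjusted p. The differences above 0 were 0.77 for *Hmgcs1* (adjusted p = 0.00147), 1.17 for *Mvd* (adjusted p = 0.000328), 0.98 for *Idi1* (adjusted p = 0.000616), 1.12 for *Fdft1* (adjusted p = 0.000209), 2.13 for *Sqle* (adjusted p = 7.05e-06), 1.31 for *Cyp51* (adjusted p = 3.27e-05), 0.54 for *Msmo1* (adjusted p = 0.00385) and 1.31 for *Dhcr7* (adjusted p = 6.79e-07). They were 0.41 for *Scap* (adjusted p = 0.0314), 0.64 for *Insig1* (adjusted p = 0.0247), 0.91 for *Stard4* (adjusted p = 0.00446), 0.72 for *Fasn* (adjusted p = 0.0169), 2.23 for *Elovl6* (adjusted p = 0.000916) and 1.03 for *Fads1* (adjusted p = 0.00091). The differences below 0 were -0.41 for *Acly* (adjusted p = 0.00494), -5.71 for *Scd1* (adjusted p = 2.66e-16) and -0.36 for *Elovl5* (adjusted p = 0.00476).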

How the results depend on the processing

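No member called in a comparison changed direction under any alternative run. Asking for an absolute log2 fold change above 1 as well left 3 of 9 calls in Tim4- KCs, 7 of 23 in CD11b- AMs, 6 of 21 in CD11b+ AMs, 4 of 16 between CD11b+ and CD11b- AMs, 20 of 31 between the controls and 8 of 17 in the interaction. Between Tim4- and Tim4+ KCs, with 0 calls, DESeq2 gave 3, the replicate block 1, the block within these groups alone 2, a fit of all 33 samples 3, and leaving out KC samples 5 and 6 gave 1 (the last and the narrower block chosen after seeing the data). Leaving out 1 sample at a time gave 0 calls in Tim4+ KCs, 6 to 10 in Tim4- KCs, 0 to 1 between the KC sorts, 22 to 23 in CD11b- AMs, 17 to 20 in CD11b+ AMs, 14 to 17 between the AM sorts, 30 to 31 between the controls and 16 to 18 in the interaction. The calls that were lost most often were those of *Tm7sf2* in CD11b- AMs (17 of 23 alternatives), *Fads1* in CD11b+ AMs (16 of 23) and *Mvk* between the controls (14 of 19). A fit of all 33 samples also lost *Hsd17b7*, *Pmvk* and *Scap* in CD11b- AMs, *Hsd17b7* and *Sc5d* in CD11b+ AMs and *Pmvk* and *Scap* between the AM sorts. AM samples of the same number in the CD11b+ and CD11b- sorts correlated by 0.0744 to 0.1349 and each matched its own number best, and with the replicate block 11 members were higher and 6 lower (9 and 6 with the block within these groups alone). For the other comparisons the block gave 10 calls in Tim4- KCs, 0 in Tim4+ KCs, 22 in CD11b- AMs, 21 in CD11b+ AMs, 30 between the controls and 18 in the interaction. Without a filter on low counts, the median log2 fold change of all genes between the controls was 0.125. Depth limits *Acacb* and *Fads2* in AMs, where both were at 0 counts in some samples.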

Other observations

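Within groups, members of the sterol arms varied together to a modest degree. Over the 153 pairs of the 18 sterol enzymes, the median Pearson r of the deviations from the group mean of log2 CPM was 0.18 across 33 samples, and 75.2% of pairs were above 0, beside a median of 0 over all pairs of genes. The median was 0.12 over the 18 KC samples and 0.35 over the 15 AM samples, and between the sterol and the fatty acid arms it was -0.03 across all samples. The pairs with the highest r were *Idi1* with *Sqle* (0.72), *Hmgcs1* with *Insig1* (0.70) and *Fdft1* with *Ebp* (0.69), and those with the lowest were *Cyp51* with *Scd1* (-0.66), *Stard4* with *Scd1* (-0.61) and *Fdps* with *Scd1* (-0.55). All these values come from the same libraries, so depth and preparation are shared between the genes of a pair, and no test was made.

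Several lipid genes outside the lists of synthesis enzymes differed in CRE+ AMs. *Me1*, the cytosolic malic enzyme that supplies NADPH, rose in CD11b- (log2 fold change 1.38, SE 0.41, adjusted p = 0.0179) and CD11b+ AMs (log2 fold change 2.11, SE 0.42, adjusted p = 0.000343) by edgeR's quasi-likelihood test. *Ch25h*, which makes an oxysterol from cholesterol, fell in CD11b+ AMs (log2 fold change -1.59, SE 0.16, adjusted p = 8.46e-08), as did *Lpcat3*, a phospholipid acyltransferase (log2 fold change -1.02, SE 0.07, adjusted p = 1.28e-10). *Soat1*, which esterifies cholesterol for storage, rose in CD11b+ AMs (log2 fold change 0.68, SE 0.06, adjusted p = 7.15e-09).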
